A study of Mus musculus with 12 samples.

Results

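The genes examined were those of the proteasome, with its regulatory particles, inhibitor and assembly factors. They were taken as every symbol of the Psma, Psmb, Psmc, Psmd, Psme, Psmf and Psmg series followed by a digit, with Pomp, Adrm1 and Sem1 added by name. Of 12151 genes in the expression table, 51 met this rule, 48 by the series pattern, 2 by name and 1, Sem1, under its older symbol Shfm1. The pattern also took in Psmc3ip, a cofactor of meiotic recombination that is no proteasome subunit, so 50 genes belong to the proteasome itself. The germline or thymic subunits Psma8 and Psmb11 were not among the genes of the table.

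RNA had been sequenced in 12 libraries of mouse pre-B cells that carry the Ctnnb1Ex3fl/+ genotype and were transformed by the BCR-ABL1 oncogene to model acute lymphoblastic leukemia of B cells (B-ALL). All libraries shared this genotype, the oncogene and, per the protocol, the 4-hydroxytamoxifen (4-OHT) treatment, and the bone marrow had come from mice of 6 to 12 weeks. In the WT groups the cells had been edited with nontargeting guides (sgNTC), and in the KO groups with guides against Ikzf1 and Ikzf3, the genes of the B lymphoid transcription factors Ikaros and Aiolos. In each background, cells carried a vector for ERT2 alone (control) or for Cre-ERT2, a Cre recombinase that 4-OHT activates and that then removes the floxed exon, which encodes the phosphorylated residues needed for breakdown of β-catenin. This gave 4 groups of 3 libraries (ERT2 WT and ERT2 KO, Cre-ERT2 WT and Cre-ERT2 KO), taken 1 day after 4-OHT. The edited lines had been grown from single cells and the transduced cells sorted on GFP. The labels do not say whether the 3 libraries of a group were separate lines or separate cultures of 1 line, so P values measure the spread between these libraries only, which may be technical, and a property of a single clone cannot be told apart from the editing.

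The proteasome degrades proteins tagged with ubiquitin, among them β-catenin once it is phosphorylated, and it supplies the peptides presented on MHC class I. Its 20S core is a barrel of alpha rings, which form the gate, and beta rings, in which Psmb5, Psmb6 and Psmb7 hold the catalytic sites. Lymphoid cells also express Psmb8, Psmb9 and Psmb10, which take the places of these subunits to form the immunoproteasome and are known as interferon-inducible genes. The core is capped by the 19S particle, whose ATPases unfold substrates and whose lid removes ubiquitin, or by other activators, namely the Psme1 and Psme2 (PA28αβ) ring, Psme3 (PA28γ) and Psme4 (PA200).

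Values are the authors' normalized log2 values, and a change is a difference of log2 values between group means with its standard error (SE) from limma. A gene was called higher or lower at an adjusted p under 0.05, with Benjamini-Hochberg adjustment over all 12151 genes. The median gene of a library lay between 9.06 and 9.11 in all 12 libraries, and the depth of the libraries is unknown because the table holds no counts. The mean of the proteasome genes over the libraries ran from 7.26 for Psme2b to 13.26 for Psmd2, 50 of 51 were at 8 or above, and none was removed by a filter. The spread between replicates was small, with a median SD per gene of 0.021 to 0.038 in the 4 groups. In the libraries labelled KO, the mRNA of Ikzf3 was lower (−0.65 in ERT2 and −0.70 in Cre-ERT2 libraries), whereas that of Ikzf1 was higher (1.01 and 0.90), so the KO label is used here as given. An mRNA level does not show whether an edited protein was lost. All 9 pre-B cell markers analysed (among them Cd79a, Ebf1 and Pax5) were in the table, with means from 11.32 to 15.16. Their summed level was 16.72 to 16.75 in WT and 16.30 to 16.35 in KO libraries. Of 7 myeloid markers only Itgam and Lyz2 were in the table, with a sum of 7.57 to 7.62 in WT and 8.45 to 8.76 in KO libraries. The higher of the 2 gene means (ERT2 and Cre-ERT2) was 7.41 and 7.38 in WT and 8.4 and 8.61 in KO. The lower was 4.66 and 4.7 in WT and 4.51 and 4.52 in KO, so the sum follows 1 gene. Of 6 T cell markers only Cd5 was in the table (4 group means from 6.67 to 7.81), and none of the 5 erythroid and 4 stromal markers was. The pre-B cell and myeloid sums moved with the KO label. Cd5 was at 6.67 in ERT2 WT, 7.18 in Cre-ERT2 WT, 6.8 in ERT2 KO and 7.81 in Cre-ERT2 KO libraries. The lowest pre-B gene mean was higher in KO (11.77 and 11.66 against 11.47 and 11.32). The highest was lower (14.31 and 14.4 against 15.1 and 15.16). The part of these markers in the changes described was not tested. In bulk libraries, fewer cells of a type and less RNA per cell cannot be told apart.

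The promoters of the 5 members of the immunoproteasome and its PA28αβ activator are shown because these genes were lower in both comparisons of KO with WT libraries described next, and that of Psmg1 because it had the largest rise there. Each line gives the 250 bases before the start site annotated by RefSeq, written 5′ to 3′ on the strand of the gene (GRCm38.p6). The windows of Psmb8, Psmb9 and Psme1 lie inside the GENCODE gene spans given below. Those of Psmb10 and Psme2 reach into theirs. For these genes the windows are upstream sequence only by the RefSeq start. Capitals mark the Ikaros core letters GGGAA or, on the other strand, TTCCC.
Psmb8 (chr17:34197945-34198194, plus strand): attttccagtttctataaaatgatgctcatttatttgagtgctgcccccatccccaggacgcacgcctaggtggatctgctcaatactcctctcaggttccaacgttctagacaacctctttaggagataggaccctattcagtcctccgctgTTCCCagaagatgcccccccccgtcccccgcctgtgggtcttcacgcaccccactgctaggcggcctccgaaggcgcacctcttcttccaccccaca
Psmb9 (chr17:34187331-34187580, minus strand): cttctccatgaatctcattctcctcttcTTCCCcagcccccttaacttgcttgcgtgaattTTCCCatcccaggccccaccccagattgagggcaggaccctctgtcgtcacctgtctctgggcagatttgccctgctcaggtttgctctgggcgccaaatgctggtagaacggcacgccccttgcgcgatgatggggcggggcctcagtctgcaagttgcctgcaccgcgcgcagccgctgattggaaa
Psmb10 (chr8:105938393-105938642, minus strand): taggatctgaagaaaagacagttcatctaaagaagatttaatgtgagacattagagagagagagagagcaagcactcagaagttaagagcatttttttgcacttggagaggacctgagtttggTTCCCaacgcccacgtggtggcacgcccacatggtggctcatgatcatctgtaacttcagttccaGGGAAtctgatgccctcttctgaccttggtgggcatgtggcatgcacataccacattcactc
Psme1 (chr14:55578244-55578493, plus strand): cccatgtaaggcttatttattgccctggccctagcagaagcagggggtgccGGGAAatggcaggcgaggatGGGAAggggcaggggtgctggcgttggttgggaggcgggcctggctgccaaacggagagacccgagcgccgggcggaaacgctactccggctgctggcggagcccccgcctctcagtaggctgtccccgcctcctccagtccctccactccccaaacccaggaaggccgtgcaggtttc
Psme2 (chr14:55591022-55591271, minus strand): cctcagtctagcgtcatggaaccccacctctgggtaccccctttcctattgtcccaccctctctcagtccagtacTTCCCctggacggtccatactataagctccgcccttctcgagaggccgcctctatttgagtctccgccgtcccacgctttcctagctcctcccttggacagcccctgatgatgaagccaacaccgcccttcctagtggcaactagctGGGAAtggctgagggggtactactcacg
Psmg1 (chr16:95990961-95991210, minus strand): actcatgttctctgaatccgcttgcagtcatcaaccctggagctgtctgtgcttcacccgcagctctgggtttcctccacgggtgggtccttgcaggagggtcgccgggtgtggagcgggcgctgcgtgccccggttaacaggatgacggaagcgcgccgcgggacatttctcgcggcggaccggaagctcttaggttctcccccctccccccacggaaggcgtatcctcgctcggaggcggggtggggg

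Of the 51 genes, 44 had at least 1 such window in the RefSeq table, here taken as 300 bases that reach 50 bases past the start site, and the other 7 were not searched. A gene counted when any of its windows held the letters (3 genes had 2 windows), whereas the share of all windows was counted per window. GGGAA, read on both strands, was found in 30 of these 44 genes (68.2%) and in 62.7% of all 32851 windows of that length. It was present in all 5 genes Psmb8, Psmb9, Psmb10, Psme1 and Psme2, in 14 of 18 genes lower in both KO comparisons (77.8%), in 3 of 5 genes higher in both (60%), and not in the window of Psmg1. In the Psmb8 window the TTCCC is also part of a match to TTCNNNGAA, the letters of a gamma-activated sequence, which 6.82% of member genes and 8.3% of all windows held. The interferon-response letters GAAANNGAA occurred in 8 of 44 genes (18.2%) against 8.56% of all windows. Psme1 was the only one of the 5 with them, past its start site and overlapping another TTCCC. The antioxidant response core TGACNNNGC occurred in 8 genes (18.2% against 12.4%), among them Psmb5, Psmb6 and Adrm1. CCAAT was found in 15 genes (34.1% against 37.4%), the E-box CACGTG in 4 (9.09% against 7.15%), and the TCF/LEF letters CTTTGAA in none of the 44 genes, against 5.14% of all windows. These matches describe letters in the windows, not binding.

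The first question was how the proteasome genes differed between the libraries labelled KO and the WT libraries without β-catenin stabilization. In ERT2 libraries 33 of the 51 genes were called (64.7%), 25 lower and 8 higher in KO, against 59.0% of all genes, 29.3% lower and 29.8% higher. The share called was thus near that of the table, and the members' changes leaned to lower values, with a median of −0.064 against 0.0016 over all genes. All changes were small, from −0.31 to 0.29. Calls with a change of 0.2 or more were made for 12 of 51 genes, against 3460 of all 12151 genes. The values of the 2 groups did not overlap for 38 genes, 28 below and 10 above, against 65.5% of all genes. In Cre-ERT2 libraries, which share no library with the first comparison, 32 genes were called (62.7%), 22 lower and 10 higher, against 58.9% of all genes, 28.6% lower and 30.4% higher. The lines were cloned before the vectors were added, so both comparisons may rest on the same clones. Agreement between them does not tell editing from a property of a clone. The median was −0.018, the range −0.37 to 0.34, and 35 genes did not overlap, against 63.6% of all genes. Here 7 of 51 genes were called with a change of 0.2 or more, against 3471 of all 12151 genes. Centring each library on its median gene turned the calls to 28 lower and 4 higher in ERT2 libraries and to 24 lower and 8 higher with Cre-ERT2, and moved the median of all genes to −0.031 and −0.032.

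Both comparisons named largely the same genes. Of the genes lower in KO, 20 were called in both, which is 80.0% of those in ERT2 and 90.9% of those in Cre-ERT2 libraries, and of the genes higher in KO, 6 were (75.0% and 60.0%). No gene was called in opposite directions, 44 of 51 changed with the same sign, and Pearson's r across the 51 genes was 0.93 (Spearman's rho 0.93). These values are a description, because the genes share libraries and are not independent. No counterpart over all genes was formed, so the agreement is not shown to be particular to the proteasome genes.

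**Figure D1:**
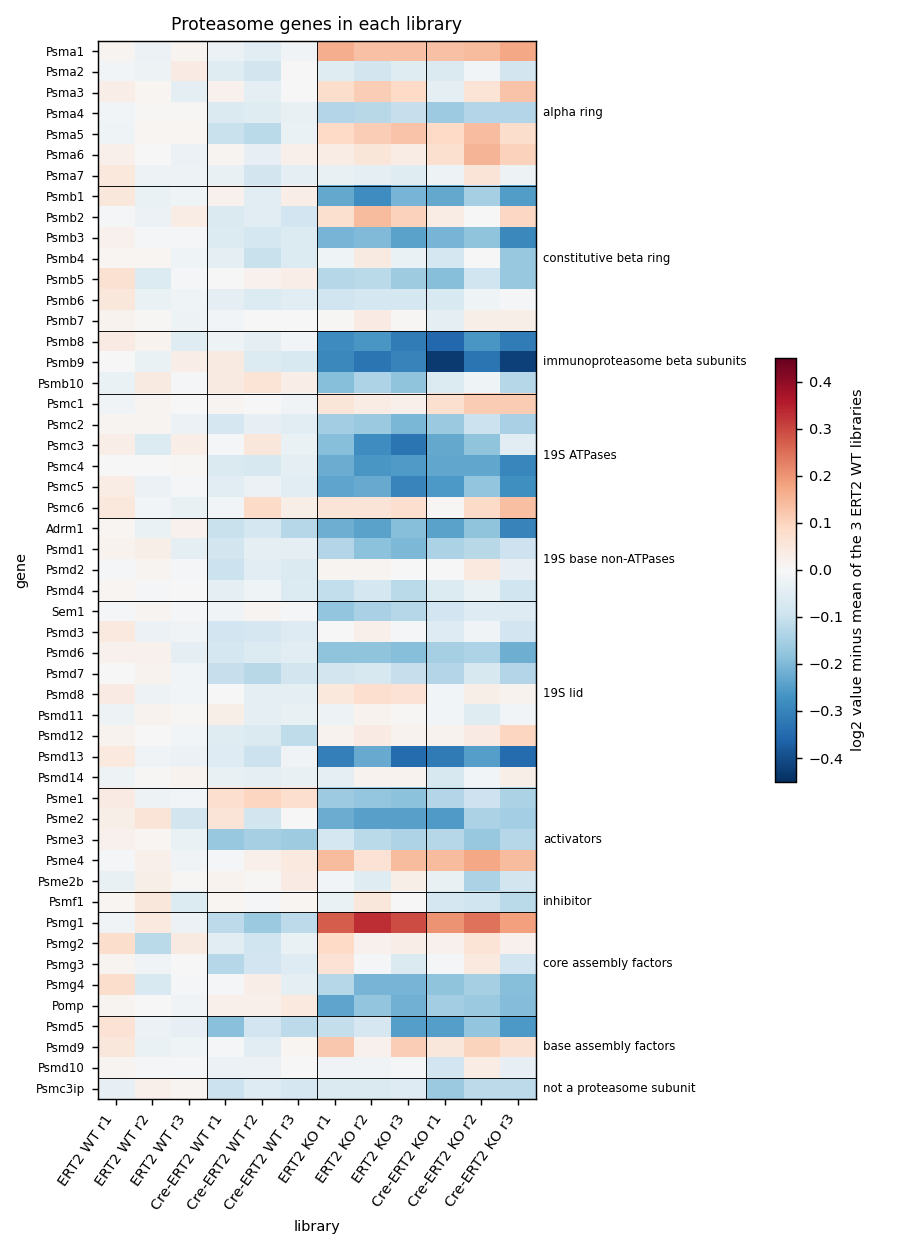
Heat map of the 51 genes (rows, grouped by their place in the proteasome) in the 12 libraries (columns), as the log2 value minus the mean of the 3 ERT2 WT libraries, blue for lower and red for higher. The 6 KO columns show blue rows at Psmb8 and Psmb9, most 19S ATPases and Psmd13, and red rows at Psma1, Psma5, Psme4 and Psmg1, while the 3 Cre-ERT2 WT columns differ little from the 3 ERT2 WT columns.

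The 3 immunoproteasome subunits were lower in KO in both comparisons, and 2 of them had the largest falls of all subunits in Cre-ERT2 libraries. Psmb9 (β1i, chr17:34181987-34187764, minus strand, GRCm38) was at 10.82, 10.79 and 10.85 in ERT2 WT, 10.86, 10.76 and 10.75 in Cre-ERT2 WT, 10.53, 10.49 and 10.52 in ERT2 KO, and 10.39, 10.49 and 10.40 in Cre-ERT2 KO libraries. All 6 KO values lay below all 6 WT values. It fell by 0.31 (SE 0.035, limma adjusted p = 8.07e-06) in ERT2 and by 0.37 (adjusted p = 1.51e-06) in Cre-ERT2 libraries, to 80.8% and 77.6% of the WT level. Psmb8 (β5i, chr17:34197721-34201454, plus strand) was at 11.87, 11.85 and 11.78 in ERT2 WT, 11.81, 11.79 and 11.82 in Cre-ERT2 WT, 11.55, 11.57 and 11.52 in ERT2 KO, and 11.48, 11.57 and 11.52 in Cre-ERT2 KO libraries. Again no KO value reached the lowest WT value. The falls were 0.29 (SE 0.029, limma adjusted p = 2.91e-06) and 0.28 (adjusted p = 3.28e-06) on the log2 scale. Psmb10 (β2i, chr8:105935735-105938444, minus strand) was at 9.85, 9.92 and 9.87 in ERT2 WT, 9.92, 9.94 and 9.91 in Cre-ERT2 WT, 9.69, 9.74 and 9.70 in ERT2 KO, and 9.82, 9.86 and 9.75 in Cre-ERT2 KO libraries. Within each vector all KO values were below all WT values, although the Cre-ERT2 KO replicate with 9.86 exceeded 1 ERT2 WT replicate. Psmb10 fell by 0.17 (SE 0.031, limma adjusted p = 0.000532) and 0.11 (adjusted p = 0.00841).

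Of the constitutive catalytic subunits, Psmb5 was called lower in both comparisons, Psmb6 in ERT2 libraries and Psmb7 in neither. Psmb5 (β5), whose place Psmb8 takes, was at 10.27, 10.14 and 10.19 in ERT2 WT, 10.20, 10.22 and 10.23 in Cre-ERT2 WT, 10.07, 10.08 and 10.04 in ERT2 KO, and 10.01, 10.11 and 10.03 in Cre-ERT2 KO libraries. It fell by 0.14 (limma adjusted p = 0.0043) and 0.16 (adjusted p = 0.00132), with no overlap of KO and WT values. Psmb6 (β1), the counterpart of Psmb9, was at 11.36, 11.28 and 11.29 in ERT2 WT, 11.27, 11.25 and 11.26 in Cre-ERT2 WT, 11.22, 11.23 and 11.23 in ERT2 KO, and 11.24, 11.29 and 11.30 in Cre-ERT2 KO libraries. It was lower in KO in ERT2 libraries (−0.08, limma adjusted p = 0.0146), a call that was lost without ERT2 WT replicate 1 (adjusted p = 0.0709) or with quantile normalization (0.2), and not called in Cre-ERT2 libraries (0.02, adjusted p = 0.609), where the groups overlapped. Psmb7 (β2), the counterpart of Psmb10, was at 11.94, 11.93 and 11.90 in ERT2 WT, 11.91, 11.92 and 11.92 in Cre-ERT2 WT, 11.93, 11.96 and 11.93 in ERT2 KO, and 11.88, 11.95 and 11.95 in Cre-ERT2 KO libraries. KO and WT values overlapped, and its changes of 0.01 in both comparisons were not called (limma adjusted p = 0.62 and 0.739). The log2 difference of each immunoproteasome subunit to its constitutive counterpart, formed within each library, fell in KO for all 3 pairs in both comparisons. That of Psmb9 to Psmb6 was −0.49 ± 0.051 in ERT2 WT, −0.47 ± 0.057 in Cre-ERT2 WT, −0.71 ± 0.02 in ERT2 KO and −0.85 ± 0.046 in Cre-ERT2 KO libraries (mean ± SD, n = 3). The changes of this difference were −0.23 and −0.38, those of Psmb8 to Psmb5 −0.15 and −0.12, and those of Psmb10 to Psmb7 −0.18 and −0.12. These differences serve to compare libraries and not the amounts of the subunits.

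**Figure D2:**
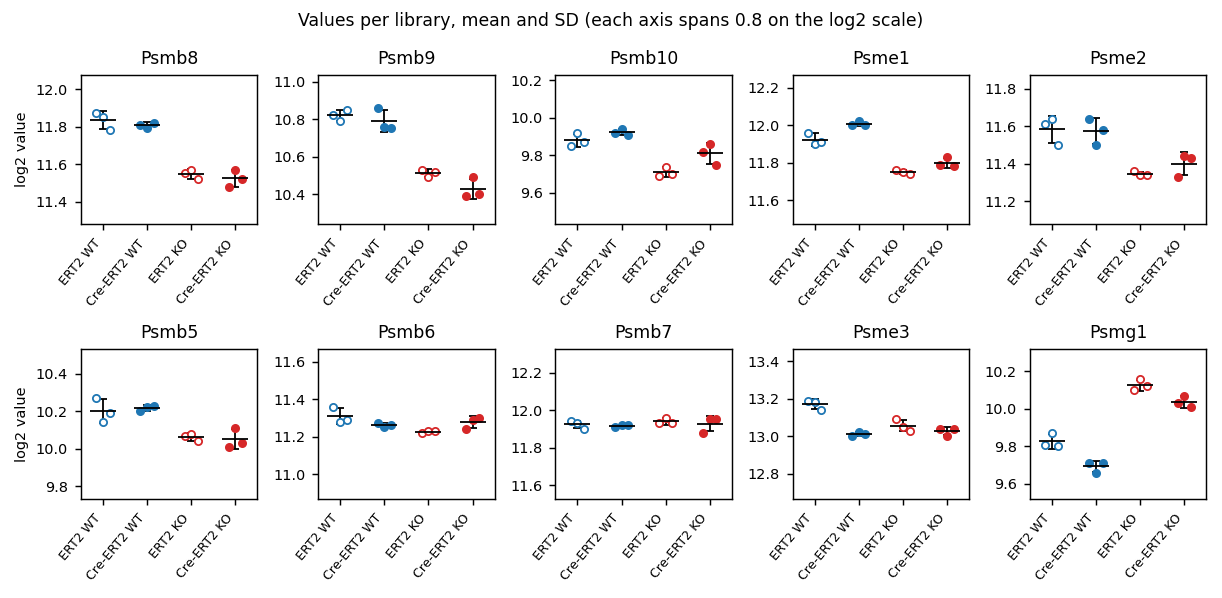
Log2 values of 10 genes in the single libraries (points, open for ERT2 and filled for Cre-ERT2, blue for WT and red for KO) with the mean (bar) and SD of each group of 3, on axes of equal span. Psmb8, Psmb9, Psmb10, Psme1 and Psme2 are lower in KO than in WT under either vector, Psmb7 lies between 11.88 and 11.96 throughout, Psmg1 is higher in KO, and Psme3 is highest in ERT2 WT libraries.

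Psme1 and Psme2, which form the PA28αβ activator and lie beside each other on chromosome 14, were also lower in KO. Psme1 (chr14:55578123-55581529, plus strand) was at 11.96, 11.90 and 11.91 in ERT2 WT, 12.00, 12.02 and 12.00 in Cre-ERT2 WT, 11.76, 11.75 and 11.74 in ERT2 KO, and 11.79, 11.83 and 11.78 in Cre-ERT2 KO libraries. Its falls were 0.17 (SE 0.023, limma adjusted p = 2.89e-05) and 0.21 (adjusted p = 6.36e-06), and all KO values lay below all WT values. Psme2 (chr14:55587441-55591113, minus strand) was at 11.61, 11.64 and 11.50 in ERT2 WT, 11.64, 11.50 and 11.58 in Cre-ERT2 WT, 11.36, 11.34 and 11.34 in ERT2 KO, and 11.33, 11.44 and 11.43 in Cre-ERT2 KO libraries. It fell by 0.24 (SE 0.043, limma adjusted p = 0.000405) and 0.17 (adjusted p = 0.00393), also without overlap. Psme2b, a near copy of Psme2 with which it may share reads, was not called in ERT2 libraries (−0.01) and lower in Cre-ERT2 libraries (−0.11, limma adjusted p = 0.0142), a call lost without Cre-ERT2 KO replicate 2 (adjusted p = 0.068). Its value is therefore uncertain. Psme4, which caps the core for degradation without ubiquitin, was the one activator higher in KO. It was at 12.03, 12.06 and 12.02 in ERT2 WT, 12.03, 12.06 and 12.08 in Cre-ERT2 WT, 12.18, 12.10 and 12.18 in ERT2 KO, and 12.18, 12.21 and 12.18 in Cre-ERT2 KO libraries. Its rises were 0.11 (limma adjusted p = 0.00173) and 0.13 (adjusted p = 0.000561), and every KO value was above every WT value. Psmf1, the inhibitor PI31, was not called in ERT2 libraries (0.00) and was lower in Cre-ERT2 KO than in Cre-ERT2 WT libraries (−0.10, limma adjusted p = 0.0125).

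Among the remaining 20S core genes, some rose and others fell in each ring. Of 7 alpha subunits, which form the outer rings, 3 were higher (42.9%) and 1 lower (14.3%) in KO in each comparison, against 29.8% and 30.4% of all genes higher and 29.3% and 28.6% lower, with medians of 0.04 and 0.058. Psma1 (α6) was at 12.00, 11.96 and 12.00 in ERT2 WT, 11.96, 11.94 and 11.97 in Cre-ERT2 WT, 12.15, 12.12 and 12.12 in ERT2 KO, and 12.12, 12.13 and 12.16 in Cre-ERT2 KO libraries. All KO values were above all WT values, and the rises were 0.14 (SE 0.021, limma adjusted p = 6.43e-05) and 0.18 (adjusted p = 8.53e-06). Psma5 (α5) was at 11.47, 11.50 and 11.50 in ERT2 WT, 11.39, 11.37 and 11.46 in Cre-ERT2 WT, 11.58, 11.60 and 11.62 in ERT2 KO, and 11.58, 11.63 and 11.57 in Cre-ERT2 KO libraries. It rose by 0.11 (limma adjusted p = 0.00301) and 0.18 (adjusted p = 5.38e-05), with KO above WT in every library. Psma4 (α3) fell by 0.12 and 0.09, Psma3 was called higher in ERT2 libraries (0.10, lost without any one of 5 libraries, adjusted p up to 0.129, and after median centring, 0.163) and Psma6 in Cre-ERT2 libraries (0.11). Of 7 constitutive beta subunits, 4 were lower and 1 higher in ERT2 and 3 lower and 1 higher in Cre-ERT2 libraries. Apart from Psmb5, the non-catalytic Psmb1 (−0.24 and −0.21) and Psmb3 (−0.22 and −0.16) fell in both, and Psmb2 rose in both (0.11 and 0.12). The call of Psmb2 in ERT2 libraries was lost after median centring (adjusted p = 0.0519).

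In the 19S particle, 11 of 19 genes were lower (57.9%) and 1 higher in KO in ERT2 libraries, and 9 were lower (47.4%) and 3 higher in Cre-ERT2 libraries, against 29.3% and 28.6% of all genes lower. The share called in either direction, 63.2% in both, was near that of all genes (59.0% and 58.9%). Of the 6 ATPases, which form the ring that unfolds substrates, 4 were lower in both comparisons, namely Psmc2 (−0.17 and −0.09), Psmc3 (−0.26 and −0.16), Psmc4 (−0.25 and −0.19) and Psmc5 (−0.25 and −0.20). The call of Psmc3 in Cre-ERT2 libraries was lost without Cre-ERT2 KO replicate 1 (adjusted p = 0.0549) and that of Psmc2 with quantile normalization (0.216). Psmc6 was not called in either (0.06 and 0.04), and Psmc1 was called higher in Cre-ERT2 libraries (0.10) and not called in ERT2 libraries (0.03). Among the non-ATPase genes of the base, Adrm1, a ubiquitin receptor, fell by 0.21 and 0.14, Psmd1, a scaffold, by 0.17 and 0.07, and Psmd4, another ubiquitin receptor, was lower in ERT2 libraries (−0.10) and not called in Cre-ERT2 libraries (−0.02). The call of Psmd1 in Cre-ERT2 libraries was lost without any one of 6 libraries (adjusted p of 0.0542 to 0.14) and with quantile normalization (0.476). Of 9 lid genes, 4 were lower and 1 higher in ERT2 and 3 lower and 1 higher in Cre-ERT2 libraries, so that 55.6% and 44.4% were called. Psmd13 (Rpn9, chr7:140881968-140898643, plus strand) had the largest fall of the lid and was at 11.89, 11.83 and 11.82 in ERT2 WT, 11.79, 11.75 and 11.83 in Cre-ERT2 WT, 11.54, 11.62 and 11.50 in ERT2 KO, and 11.53, 11.60 and 11.50 in Cre-ERT2 KO libraries. No KO value reached the lowest WT value, and the falls were 0.29 (SE 0.037, limma adjusted p = 1.77e-05) and 0.24 (adjusted p = 8.47e-05). Psmd6 fell in both (−0.19 and −0.11), Sem1 likewise (−0.15 and −0.06), Psmd7 was lower in ERT2 libraries (−0.09), Psmd8 higher there (0.06), and Psmd12 higher in Cre-ERT2 libraries (0.13). The call of Sem1 in Cre-ERT2 libraries was lost without Cre-ERT2 WT replicate 2 (adjusted p = 0.0783) or Cre-ERT2 KO replicate 1 (0.0842) and with quantile normalization (0.542). That of Psmd7 was lost with quantile normalization (0.168), and that of Psmd8 without any one of 4 libraries (0.0739 to 0.111) and after median centring (0.255). Psmd14, the deubiquitinase of the lid, was between 12.04 and 12.14 in all libraries and was not called (0.00 and 0.02).

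**Figure D3:**
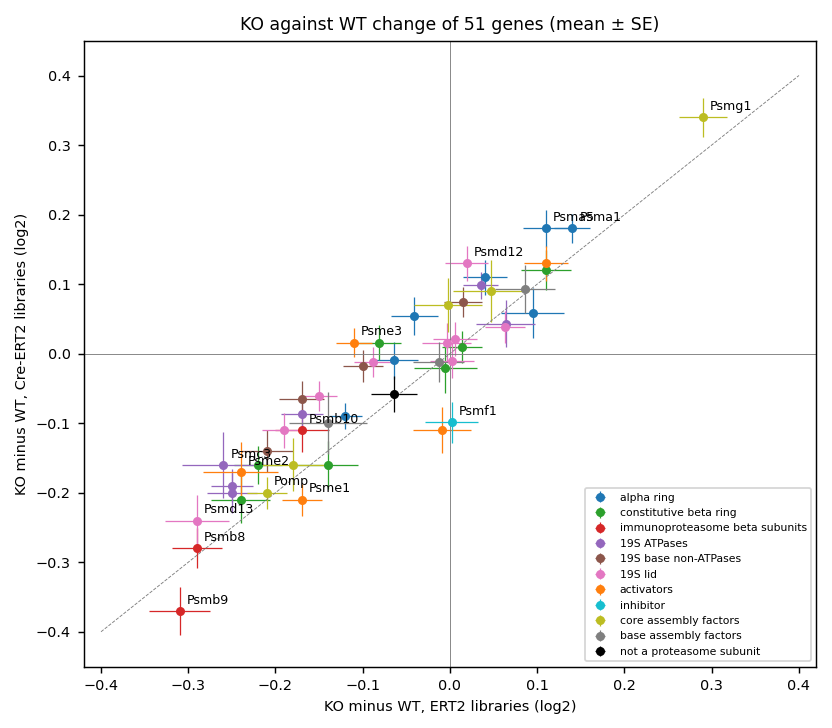
Change of each of the 51 genes between KO and WT in ERT2 libraries (x axis) and in Cre-ERT2 libraries (y axis), in log2 units with SE bars, colored by place in the proteasome, with the line of equal change dashed. Most points lie along the dashed line (r 0.93), from Psmb9 at −0.31 and −0.37 to Psmg1 at 0.29 and 0.34.

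The assembly factors held both the largest rise and clear falls. Psmg1 (PAC1, chr16:95979933-95990960, minus strand), which with Psmg2 starts the alpha ring, was at 9.81, 9.87 and 9.80 in ERT2 WT, 9.71, 9.66 and 9.71 in Cre-ERT2 WT, 10.10, 10.16 and 10.12 in ERT2 KO, and 10.03, 10.07 and 10.01 in Cre-ERT2 KO libraries. All KO values were above all WT values, and the rises were 0.29 (SE 0.028, limma adjusted p = 1.6e-06) and 0.34 (adjusted p = 3.88e-07), or 1.23 and 1.27-fold. Its partner Psmg2 was not called (0.05 and 0.09). Pomp, which guides beta subunits into the core, fell by 0.21 (limma adjusted p = 4.31e-06) and 0.20 (adjusted p = 7.21e-06), and Psmg4 by 0.18 and 0.16. Psmg3, with which Psmg4 pairs, was not called (0.00 and 0.07). Of the 3 base assembly factors, Psmd9 was higher in both (0.09 and 0.09), a call lost without any one of several libraries in each comparison (adjusted p up to 0.149), after median centring and with quantile normalization (0.125 to 0.225), Psmd5 was lower in ERT2 libraries (−0.14), a call lost without ERT2 WT replicate 1 or ERT2 KO replicate 3 (adjusted p = 0.0699 and 0.0716), and Psmd10 was called in neither.

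The second question was how these genes differed between Cre-ERT2 and ERT2 libraries, the comparison used here for β-catenin stabilization. All libraries carried the floxed allele. An effect of active Cre or of the vector can therefore not be told apart from that of stabilized β-catenin, here and in all β-catenin changes given below. In WT cells 5 of 51 genes were called (9.80%), 1 higher and 4 lower with Cre-ERT2, against 11.9% of all genes, 5.93% higher and 5.95% lower. The changes ran from −0.16 to 0.08, and 40 of 51 were negative, with a median of −0.036 against 2.2e-05 over all genes. The groups did not overlap for 24 genes, 22 of them below, against 31.1% of all genes. None of the 17 core subunits was called by limma, although 4 of them had an unadjusted p under 0.05. In KO cells 2 of 51 genes were called (3.92%), 1 higher and 1 lower, against 12.6% of all genes, 7.27% higher and 5.33% lower. The changes ran from −0.10 to 0.11 with a median of −0.01, and 13 genes did not overlap, against 28.3% of all genes. The 2 comparisons share no library. No gene was called in both, 34 of 51 had the same sign, and r across the genes was 0.46 (rho 0.44), again as a description without a counterpart over all genes.

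Psme3 (PA28γ, chr11:101316213-101323537, plus strand), the nuclear activator, had the largest change with stabilized β-catenin. It was at 13.19, 13.18 and 13.14 in ERT2 WT, 13.00, 13.02 and 13.01 in Cre-ERT2 WT, 13.09, 13.05 and 13.03 in ERT2 KO, and 13.04, 13.00 and 13.04 in Cre-ERT2 KO libraries. The ERT2 WT libraries lay above the other 9, and within KO the vectors overlapped. In WT cells it fell by 0.16 (SE 0.021, limma adjusted p = 0.000346), to 89.5% of control, and in KO cells its change was −0.03 (adjusted p = 0.385). Psme3 was also lower in KO than in WT among ERT2 libraries (−0.11, limma adjusted p = 0.000588) and not called among Cre-ERT2 libraries (0.02, adjusted p = 0.556). Psme1 moved the other way in WT cells, with a rise of 0.08 (SE 0.023, limma adjusted p = 0.0368), and was 0.05 higher in KO cells without a call. Its call in WT cells was lost without any one of 8 libraries, namely 5 of the 6 WT libraries and the 3 ERT2 KO libraries (adjusted p of 0.0511 to 0.136). The Psme1 call was also lost with quantile normalization (limma adjusted p = 0.0716).

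Psmg1 also fell in WT cells, by 0.14 (SE 0.028, limma adjusted p = 0.00696), so that the gene with the largest rise in KO was lower with stabilized β-catenin. The 3 Cre-ERT2 WT values, 9.66 to 9.71, lay below the lowest ERT2 WT value of 9.80. In KO cells its change was −0.09, with no overlap and without a call (adjusted p = 0.0575). Psmd7, a structural subunit of the lid, was at 12.01, 12.03 and 12.00 in ERT2 WT, 11.91, 11.89 and 11.93 in Cre-ERT2 WT, 11.93, 11.94 and 11.91 in ERT2 KO, and 11.88, 11.94 and 11.88 in Cre-ERT2 KO libraries. All Cre-ERT2 WT values were below the ERT2 WT values, and it fell by 0.11 (SE 0.022, limma adjusted p = 0.00768), with −0.03 in KO cells. Adrm1 fell by 0.10 in WT cells at an adjusted p of 0.0487, a call lost without any one of 10 libraries (adjusted p of 0.0563 to 0.161) and with quantile normalization (0.0756). In KO cells Sem1, a small lid subunit, was at 11.43, 11.46 and 11.48 in ERT2 KO and 11.52, 11.55 and 11.55 in Cre-ERT2 KO libraries, against 11.59 to 11.62 in the 6 WT libraries. It rose by 0.09 (SE 0.021, limma adjusted p = 0.0183) without overlap, and the call was lost without ERT2 KO replicate 1 (adjusted p = 0.0753) or Cre-ERT2 KO replicate 2 (adjusted p = 0.0594). Psmf1 was at 10.17, 10.25 and 10.20 in ERT2 KO and 10.12, 10.11 and 10.08 in Cre-ERT2 KO libraries, and at 10.14 to 10.25 in WT libraries. It fell by 0.10 at an adjusted p of 0.049, and the call was lost without any one of 9 libraries (adjusted p of 0.0655 to 0.185).

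**Figure D4:**
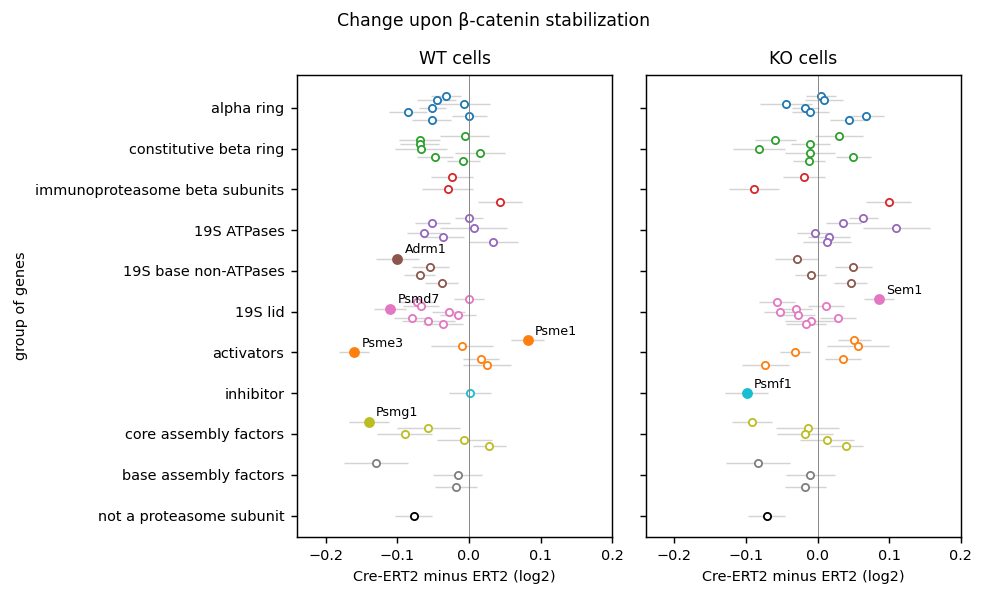
Change of each gene with β-catenin stabilization (Cre-ERT2 minus ERT2, log2, with SE bars) in WT cells (left) and KO cells (right), in rows by place in the proteasome, with filled points for called genes. In WT cells 40 of 51 points lie below 0 and Psme3, Psmg1, Psmd7 and Adrm1 are called lower and Psme1 higher, and in KO cells only Sem1 and Psmf1 are called.

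Whether the β-catenin effect itself differed in KO from that in WT cells was tested directly. The difference was called for 1 of 51 genes (1.96%), against 4.53% of all genes (2.71% higher and 1.82% lower), and that gene was Psme3 (0.13, SE 0.030, limma adjusted p = 0.0334). The call depended on single libraries, with adjusted p from 0.0201 to 0.0856 over 19 alternative fits, of which 12 lost it at their threshold. For 11 genes the unadjusted p was under 0.05. The differences were positive for 40 genes, with a median of 0.043 against 0.0011 over all genes. The 7 genes called with β-catenin in 1 background only are, Psme3 excepted, not shown to differ between backgrounds. In none of the 5 comparisons were 12 genes called, namely Psma2, Psma7, Psmb4, Psmb7, Psmc6, Psmd3, Psmd10, Psmd11, Psmd14, Psmg2, Psmg3 and Psmc3ip.

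Other genes of the ubiquitin-proteasome pathway were read from lists of general knowledge. Their counts stand beside 59.0% and 58.9% of all genes called in the 2 comparisons, with 29.3% and 28.6% lower and 29.8% and 30.4% higher. Of 5 genes that control proteasome transcription, 4 were lower in KO in both comparisons (80.0%), with medians of −0.16 and −0.19. Nfe2l2 (Nrf2) fell by 0.48 and 0.35 and Ddi2, the protease that activates Nfe2l1, by 0.22 and 0.16, while Nfe2l1 itself was not called (−0.01 and 0.04). Of 5 ubiquitin and ubiquitin-activating genes, 2 were called in each comparison (40.0%), Ubb lower (−0.32 and −0.31) and Rps27a higher (0.13 and 0.18). Of 6 genes of shuttles and proteasome-bound deubiquitinases, 4 were higher in each comparison (66.7%) and the other 2 were not called, with Ubqln2 (0.32 and 0.45) and Usp14 (0.28 and 0.26) changing most. The deubiquitinase Usp14 docks on Psmd2, which was not called in ERT2 libraries (0.02) and slightly higher in Cre-ERT2 libraries (0.07, a call lost after median centring, adjusted p = 0.105). Of 7 further proteasome-bound factors in the table, 1 was higher and 2 lower in ERT2 libraries (42.9% called). In Cre-ERT2 libraries 1 was higher and 1 lower (28.6% called). Akirin2, which brings proteasomes into the nucleus, rose (0.32 and 0.28) and Zfand5 fell (−0.21 and −0.25). Of 6 p97 segregase genes, 3 were lower in ERT2 (50.0%) and 2 in Cre-ERT2 libraries (33.3%), and none was higher, led by Vcp (−0.24 and −0.22).

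The list of peptide loading, a step downstream of the immunoproteasome, and its regulators had the largest median change of these lists. Its regulators include Irf1, which was lower in KO (−0.43 and −0.54), and Nlrc5, which was not called (0.09 and 0.04). Of the 7 genes of this list, 5 were lower in KO in ERT2 (71.4%) and 6 in Cre-ERT2 libraries (85.7%), against 29.3% and 28.6% of all genes, with medians of −0.43 and −0.48. B2m, the light chain of MHC class I, fell by 0.67 and 0.61 and Tapbp (tapasin), which holds MHC class I at the peptide transporter, by 0.60 and 0.57. Tap1 and Tap2, the peptide transporter, flank Psmb8 on chromosome 17, with Psmb9 on the other side of Tap1. Tap1 (chr17:34187553-34197225, plus strand) fell by 0.30 and 0.28, and Tap2 (chr17:34203527-34216321, plus strand) was not called in ERT2 libraries (−0.08) and fell by 0.22 in Cre-ERT2 libraries. The annotated genes Psmb9 and Tap1 overlap at their starts on opposite strands, and the strand setting of the quantification is not given in the sources used here, so reads from the shared stretch may not be told apart. With stabilized β-catenin in WT cells, Irf1 (0.22) and Erap1 (0.10) rose, Nfe2l2 (−0.19) and Ubqln4 (−0.11) fell, and the other genes of these lists were not called. Of all genes, 11.9% were called in that comparison. In KO cells Ngly1 (−0.20) was the only gene of these lists called, against 12.6% of all genes.

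**Figure D5:**
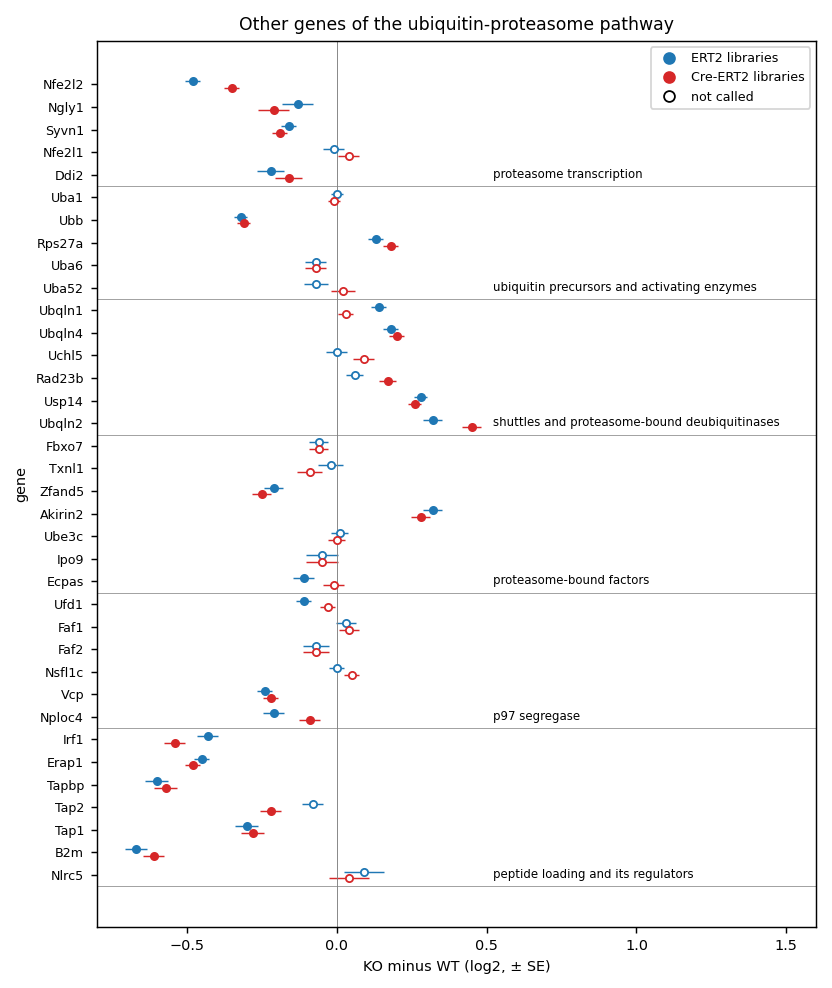
Change between KO and WT (log2, with SE bars) of the genes of 6 lists of the ubiquitin-proteasome pathway, in ERT2 (blue) and Cre-ERT2 libraries (red), with open points where a gene was not called. Of the 7 genes of peptide loading and its regulators, 6 lie left of 0 in both comparisons, down to −0.67 for B2m, whereas Ubqln2, Usp14 and Akirin2 lie right of 0.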

How the data were processed

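Each library had been made from 280 ng of total RNA with a stranded polyadenylated RNA kit and 10 PCR cycles. The authors' processing notes name Salmon 1.4.0, STAR 2.7.6, DESeq2 1.30.1 and the mm10 (GRCm38) genome. The deposited values are log2 expression values, normalized between libraries by the authors, whose transformation is not stated, so a compression of low values cannot be judged. The table holds no counts, depth is unknown, and the replicates alone give the precision.

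With limma 3.58.1 under R 4.3.3, a linear model of 4 group means was fitted to the 12151 genes in all 12 libraries (eBayes with a mean-dependent prior), without a pseudocount or filter, and tested on simulated data first. P values were adjusted by the Benjamini-Hochberg method over all genes in each of 5 contrasts. The exact 2-sided permutation test of 3 against 3 libraries cannot go below p = 0.1 and is not quoted per gene. Groups came from the sample titles.

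Members and gene lists were chosen with earlier results of these data known. Some genes of the pathway and marker lists are not reported here and were left out of the counts of those lists. Values in every library compared are given for the catalytic pairs, Psme1 and Psme2, and the 3 largest called rises and falls of each comparison, and for pathway lists the changes of up to 2 called genes with the largest change. Psme2b, Tap1, Tap2, Irf1, Nlrc5, Nfe2l1, Psmd2 and further members mentioned by their changes are named beyond that rule. Of the symbols, 51 were matched, 1 through an older name. Promoter windows are from RefSeq, and gene positions from GENCODE (GRCm38). Alternatives were median centring, quantile normalization, a pseudocount of 1 on unlogged values, a filter at a mean of 8, fits to the compared groups alone, a replicate block, a constant prior, an adjusted p under 0.01 and leaving out each library.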

Additional observations from a re-analysis of the deposited data

Results flagged for a closer look

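Psme3 was the only member whose β-catenin effect differed between KO and WT cells by the test of the difference itself. Its change with Cre-ERT2 was −0.16 in WT and −0.03 in KO cells, a difference of 0.13 (SE 0.030, limma adjusted p = 0.0334). The 3 ERT2 WT libraries (13.14 to 13.19) lay above the other 9 (13.00 to 13.09). Over 19 alternative fits the adjusted p ran from 0.0201 to 0.0856. The call was lost without any one of 9 libraries, among them ERT2 WT replicate 1 (0.0856), Cre-ERT2 WT replicate 1 (0.0815) and ERT2 KO replicate 3 (0.0841), and held without ERT2 WT replicate 3, ERT2 KO replicate 1 or Cre-ERT2 KO replicate 2.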

How the results depend on the processing

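The counts of members called between KO and WT stayed within 1.5 times of the main counts of 33 and 32 in every alternative, with 29 to 33 when single libraries were left out. The counts for β-catenin were less stable. In WT cells the 5 called genes became 8 with a filter at a mean of 8 or a constant prior, 3 at an adjusted p under 0.01, and 3 to 8 without single libraries (3 without ERT2 WT replicates 2 or 3, Cre-ERT2 WT replicates 1 or 2, or ERT2 KO replicates 1 or 2, and 8 without Cre-ERT2 KO replicate 3). In KO cells the 2 called genes became 0 in the fit to the compared groups alone (9 at an unadjusted p under 0.05) and at an adjusted p under 0.01 (14), 6 with a constant prior, and 1 to 3 without single libraries, with 1 without any one of 8 of them. The difference of the effects, 1 called gene, became 0 after median centring and at an adjusted p under 0.01 (11 at an unadjusted p under 0.05 in both), and 0 to 1 without single libraries. The cause was not tested. No change of a called gene reversed.

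Quantile normalization gave 11 higher and 25 lower genes in ERT2 and 13 higher and 20 lower in Cre-ERT2 libraries. Of the calls, 26 of 33 and 25 of 32 were kept under all alternatives at an adjusted p under 0.05, against 3 of 5 for β-catenin in WT cells, 0 of 2 in KO cells and 0 of 1 for their difference. Calls lost without single libraries in ERT2 libraries were those of Psma3, Psmb6, Psmd5, Psmd8 and Psmd9, and in Cre-ERT2 libraries those of Psmc3, Psmd1, Psmd9, Psme2b and Sem1. Median centring ended the calls of Psma3, Psmb2, Psmd8 and Psmd9 in ERT2 and of Psmd2 and Psmd9 in Cre-ERT2 libraries (adjusted p of 0.0519 to 0.255). Quantile normalization ended those of Psmb6, Psmd7 and Psmd9 in ERT2 and of Psmc2, Psmd1, Psmd9 and Sem1 in Cre-ERT2 libraries (0.125 to 0.542). The fit to the compared groups alone ended those of Psmd9 in ERT2 (0.0872) and Sem1 in Cre-ERT2 libraries (0.0546), and the replicate block those of Psma3 in ERT2 (0.0554) and Psmd1 in Cre-ERT2 libraries (0.0665). For β-catenin, the fit to the compared groups alone ended the calls of Psme1 in WT (0.0678) and of Sem1 and Psmf1 in KO cells (0.0857 and 0.0904). The replicate block ended those of Psme1 and Adrm1 in WT (0.0577 and 0.079) and of Psmf1 in KO cells (0.0549). Replicate numbers are shared by the 4 groups but did not pair the samples throughout, since correlations of the same-numbered deviations ran from −0.0908 to 0.313. Only between ERT2 KO and Cre-ERT2 KO did all 6 libraries correlate best with their own number (0.0767 to 0.132). Between Cre-ERT2 WT and Cre-ERT2 KO, differently numbered libraries had larger correlations of either sign (0.356, −0.355 and −0.333), whose source was not tested. With the replicate block the counts were 3 and 2 for β-catenin in WT and KO cells, 32 and 31 for KO against WT, and 0 for the difference (11 at an unadjusted p under 0.05). In KO cells the block gave 2 higher and 0 lower genes, against 1 and 1 in the main fit.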
